A study of Mus musculus with 36 samples.

Results

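The 28 genes described here make, package, take up and sense GABA, the main inhibitory transmitter of the adult brain, or mark the interneurons that release it. They are the genes of the deposited table whose mouse Ensembl ID carries one of 28 symbols; the rule uses no measured value, but the symbols were chosen with earlier results of these data known. All 28 were found among the 55421 genes of the table, and all 28 were among the 19478 genes that passed the filter on low counts and were tested. They comprise the GABA-synthesising enzymes Gad1 and Gad2, the vesicular GABA transporter Slc32a1 and the membrane GABA transporter Slc6a11. A further 9 encode GABA-A receptor subunits (Gabra2, Gabra3, Gabra4, Gabra5, Gabrb1, Gabrb2, Gabrg1, Gabrg3 and Gabrd) and 2 encode GABA-B receptor subunits (Gabbr1 and Gabbr2). Gphn and Nlgn2 encode proteins of the inhibitory postsynapse, and 11 genes serve as interneuron markers (Pvalb, Sst, Vip, Npy, Cck, Calb2, Reln, Lhx6, Adarb2, Sncg and Erbb4).

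RNA was sequenced from slices of the right hippocampus of wild-type (WT) C57BL/6 mice and of T41B mice, which carry the transgene Thy1-hAPPLond/Swe, human APP with the London and Swedish mutations. The Thy1 promoter cassette drives this transgene mainly in neurons, so that the model overproduces human APP and is not a model of the mouse's own gene. Mice of both genotypes were gavaged with BD10-2, which the series title calls a partial agonist of TrkB and TrkC, receptors of the neurotrophins, or with vehicle (VEH). Dosing ran for 3 months and ended when the mice were 16 months old. A slice was then either stimulated with theta bursts (STIM; 3 trains of 10 bursts, each burst of 4 stimuli at 100 Hz) or sham-treated for as long (noSTIM), and was frozen at once. Counted by mouse, each of the sham and stimulated states held 4 WT and 4 T41B mice given vehicle, and 3 WT and 5 T41B mice given BD10-2. Of the 18 mice, 14 contributed both a sham and a stimulated slice. The comparisons ask how the amyloid genotype, the stimulation and the compound were related to the levels of these genes.

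GABA is made from glutamate by the enzymes GAD67 (Gad1) and GAD65 (Gad2), loaded into vesicles by VGAT (Slc32a1), and acts on GABA-A receptors, which are chloride channels of mixed subunits, and on GABA-B receptors, which couple to G proteins. In the hippocampus a small population of interneurons releases it onto pyramidal and granule cells, and subtypes are told apart by peptides and calcium-binding proteins such as somatostatin (Sst), parvalbumin (Pvalb) and vasoactive intestinal peptide (Vip). The receptor subunits are expressed by the receiving cells, most of them excitatory, and the markers Cck, Calb2 and Reln are also expressed outside interneurons in this tissue.

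Library totals ran from 11597555 to 28125842 expected counts (median 18082415), and the median correlation of a library with its own group ran from 0.9804 to 0.9920. Thy1, which is outside the rule for named genes and was read only to check the genotype labels, stood at 255 to 400 CPM (counts scaled to a common library total) in the 16 WT libraries and at 880 to 2412 CPM in the 20 T41B libraries. No member was at 0 in any sample. Other cell types moved with the groups. Of the 5 microglial markers, 5 were higher in T41B sham slices, where their summed level ran from 300 to 570 CPM with vehicle against 151 to 200 CPM in WT, and 5 were lower after stimulation. The 5 astrocyte markers summed to 2095 to 3085 CPM in T41B and 1003 to 1212 CPM in WT sham slices with vehicle. Such a sum is weighted by its most abundant marker and does not give the change of each. After stimulation 4 of the 5 astrocyte markers were higher (median 0.42). With vehicle they summed to 1452 to 1785 CPM in WT, above all WT sham values. In T41B mice with vehicle they summed to 2820 to 3493 CPM, which overlapped the sham range. Of the 6 general neuron markers, 4 were lower after stimulation (Snap25 by a log2 fold change of -0.31, Map2 -0.22, Tubb3 -0.55 and Nefl -0.25), and their sum ran from 3545 to 3891 CPM in sham and from 3183 to 4058 CPM in stimulated slices of vehicle-treated WT mice. In WT mice given BD10-2 the sum ran from 3556 to 3998 CPM in sham and from 2847 to 3397 CPM in stimulated slices, without overlap. In T41B mice it ran from 3126 to 3838 and from 2520 to 3285 CPM with vehicle, and from 3087 to 3488 and from 2292 to 3090 CPM with BD10-2. The 4 choroid plexus markers were called higher after stimulation in vehicle-treated WT mice, where their sum ran from 14.9 to 20 CPM in sham and from 13.3 to 1187 CPM in stimulated slices, and it reached 522 CPM in vehicle-treated T41B sham slices. Of 4 dentate granule cell markers, 3 were called lower after stimulation in vehicle-treated T41B mice, where they summed to 221 to 442 CPM in sham and 188 to 220 CPM in stimulated slices. The part of these shifts in the results below was not tested, apart from a fit with libraries scaled to the 6 neuron markers, an alternative added after the data had been seen.

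Gene by gene, levels per length of exon spanned nearly 2 orders of magnitude in sham slices of vehicle-treated WT mice, the plot of levels by gene shows. Cck (93.2 ± 14.9 CPM per kb, SD, n = 4) and Sst (78.1 ± 16.9) had the highest means, and their ranges overlapped. By mean, the GABA-B subunits Gabbr1 (72.3 ± 2.34) and Gabbr2 (50.7 ± 3.5) followed, on either side of Nlgn2 (54.4 ± 7.66), the neuroligin of inhibitory synapses. The range of Gabbr1 lay within that of Sst and overlapped that of Cck, and the ranges of Gabbr2 and Nlgn2 overlapped. Among GABA-A subunits Gabra5 (40.8 ± 3.57), which forms extrasynaptic receptors on pyramidal cells, stood above Gabrb2 (21.5 ± 2.05) and Gabrb1 (19 ± 1.03), whose ranges overlapped, and Gabrg1 (1.62 ± 0.152) was lowest. Gad1 (17 ± 2.16) stood above Gad2 (10.4 ± 1.6) with no overlap. Vip (1.31 ± 0.403) and Sncg (1.21 ± 0.158) had the lowest means. The CPM values in the rest of the text are per gene and not per length, so they compare samples and not genes.

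**Figure D1:**
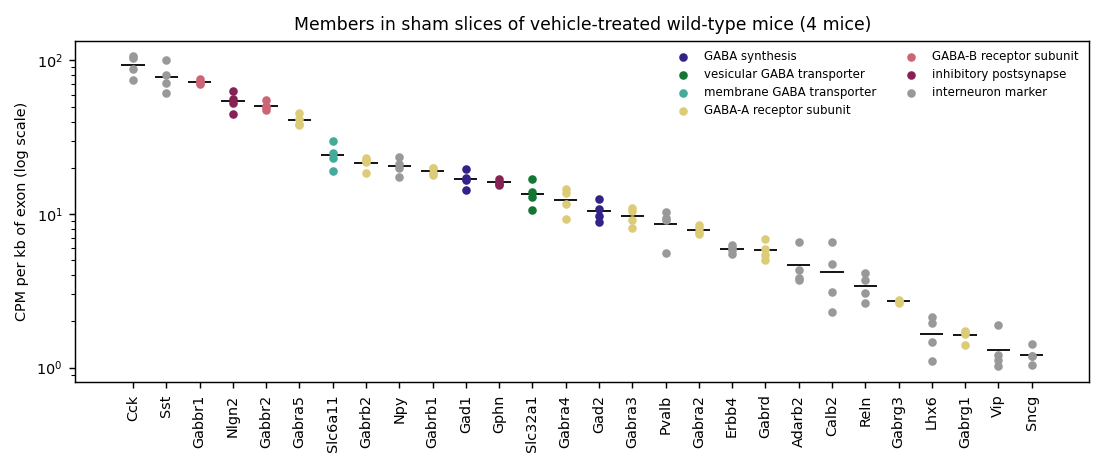
Level of each of the 28 genes in sham slices of vehicle-treated wild-type mice, as CPM per kb of exon on a log axis. Points are 4 mice, bars are means and colours give the gene's role. Cck and Sst have the highest means and Vip and Sncg the lowest.

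In the genome build GRCm38, all members lie apart from one another except Gabra4 (chr5:71569749-71658308, minus strand) and Gabrb1 (chr5:71658113-72149037, plus strand). These 2 genes start head to head and share 46 exonic bases on opposite strands. The exons of Slc32a1 (chr2:158610767-158615748) overlap those of the antisense gene Gm14205 over 697 bases, and Gabra5, Gphn and Reln also have antisense overlaps of 148, 147 and 246 bases. The strand setting of the counting is not given in the sources used here, so these values can hold reads of the partner gene. Lhx6 shares 104 exonic bases with Gm27953 on its own strand.

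Promoter sequence is shown for the 4 members with a short form of the cAMP response element, because factors that bind it (the CREB family) are known to respond to neuronal activity and to neurotrophin receptors. The 8-base element TGACGTCA, which reads the same on both strands, and its 5-base core TGACG, read as CGTCA on the other strand and contained in the full element on both, were searched in the 250 bases before each transcript start of the RefSeq annotation of GRCm38.p6. Of the 28 members, 26 had a window, in 33 windows. The full element was in 1.55% of all 32851 windows and the core in 17.8%. Sst held the full element and Gad2, Vip and Cck the core. Each line gives 30 bases of the gene's strand, 5′ to 3′, with the match in capitals.
Sst, chr16:23890874-23890903, minus strand, match 48 bases before the start: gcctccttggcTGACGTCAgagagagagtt
Gad2, chr2:22622281-22622310, plus strand, match 33 bases before the start: tccatttcccttcCGTCActctctcatctc
Vip, chr10:5639126-5639155, plus strand, match 79 bases before the start: gggatcactactgTGACGtctttcggggag
Cck, chr9:121495725-121495754, minus strand, match 47 bases before the start: tcctgctggactgCGTCAgcactgggtaaa
A match is a description of these letters and no evidence of binding. The starts are those of RefSeq. By the GENCODE M21 coordinates, the stretches of Sst and Gad2 lie inside the gene. After stimulation (results below) Gad2 and Vip were called lower, as were 24.6% of all genes, and Sst and Cck were not called. A replicate block by mouse added Sst (-0.31) and Cck (-0.17) and lost Vip (-0.36), and scaled to neuron markers none of the 4 was called and Cck was at 0.10.

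In sham slices, genes of GABA synthesis, vesicle loading and several interneuron classes were lower in T41B than in WT mice. Of the 28 genes, 15 were called lower and 0 higher on the mean of the vehicle and BD10-2 contrasts (edgeR quasi-likelihood test, adjusted p under 0.05), and with libraries scaled to neuron markers 8 were lower and 0 higher. The largest differences were in Calb2, Sst, Gabrg3, Npy, Slc32a1 and Pvalb, from -0.96 to -0.54 on the log2 scale. Of all genes tested, 17.9% were called in this comparison, 7.12% lower and 10.8% higher, against 53.6% of the members. The members' median log2 fold change was -0.31, beside 0.00 over all genes. An unadjusted p under 0.05 was reached by 20 members and by 6326 of the 19478 genes, and DESeq2 called the same 15. In bulk tissue, fewer interneurons and less RNA per interneuron cannot be told apart. The part of the astrocyte and microglia marker differences given above was not tested, apart from the neuron scaling.

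Both GABA-synthesising enzymes were lower. Gad2, the synaptic isoform, stood at 56.6, 52.1, 73.7 and 63.2 CPM in sham slices of the 4 vehicle-treated WT mice and at 49.6, 39.5, 44.9 and 54.7 CPM in the 4 T41B mice. With BD10-2, Gad2 was at 60.5, 61.4 and 60.8 CPM in the 3 WT mice and at 40.8, 42.7, 45.2, 36.2 and 39.9 CPM in the 5 T41B mice. All 5 of these T41B values were below all 3 WT values, whereas with vehicle the highest T41B mouse overlapped the lowest WT mouse. Over all genes, T41B lay below WT without overlap for 7.18% with BD10-2 (5 against 3 mice) and 3.33% with vehicle (4 against 4). Whether the genotype difference depended on treatment was not tested. The mean log2 fold change of Gad2 was -0.48, with an SE of 0.10 (edgeR adjusted p = 0.00109). Gad1, the isoform that makes most basal GABA, was at 127, 110, 150 and 132 CPM in WT and 111, 96.3, 101 and 103 CPM in T41B with vehicle. Under BD10-2 Gad1 stood at 117, 119 and 135 CPM in WT and at 91.6, 92.9, 101, 86.6 and 95.4 CPM in T41B, again with no overlap in the treated mice alone. Its mean log2 fold change was -0.37, with an SE of 0.08 (edgeR adjusted p = 0.00128).

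Slc32a1, the transporter that fills GABA vesicles, separated the genotypes fully in sham slices. WT mice held 38.8, 29.5, 35.9 and 47.1 CPM of Slc32a1 with vehicle and 30.3, 29 and 41.6 CPM with BD10-2. T41B mice held 28.6, 19.5, 25.7 and 24.2 CPM with vehicle and 24.2, 26.6, 20.9, 20.3 and 24.1 CPM with BD10-2. All 9 T41B values lay below all 7 WT values (log2 fold change -0.58, SE 0.14, edgeR adjusted p = 0.00422). Slc6a11, the astrocytic transporter GAT3, had a log2 fold change of -0.22 (edgeR adjusted p = 0.0908) and was not called.

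**Figure D2:**
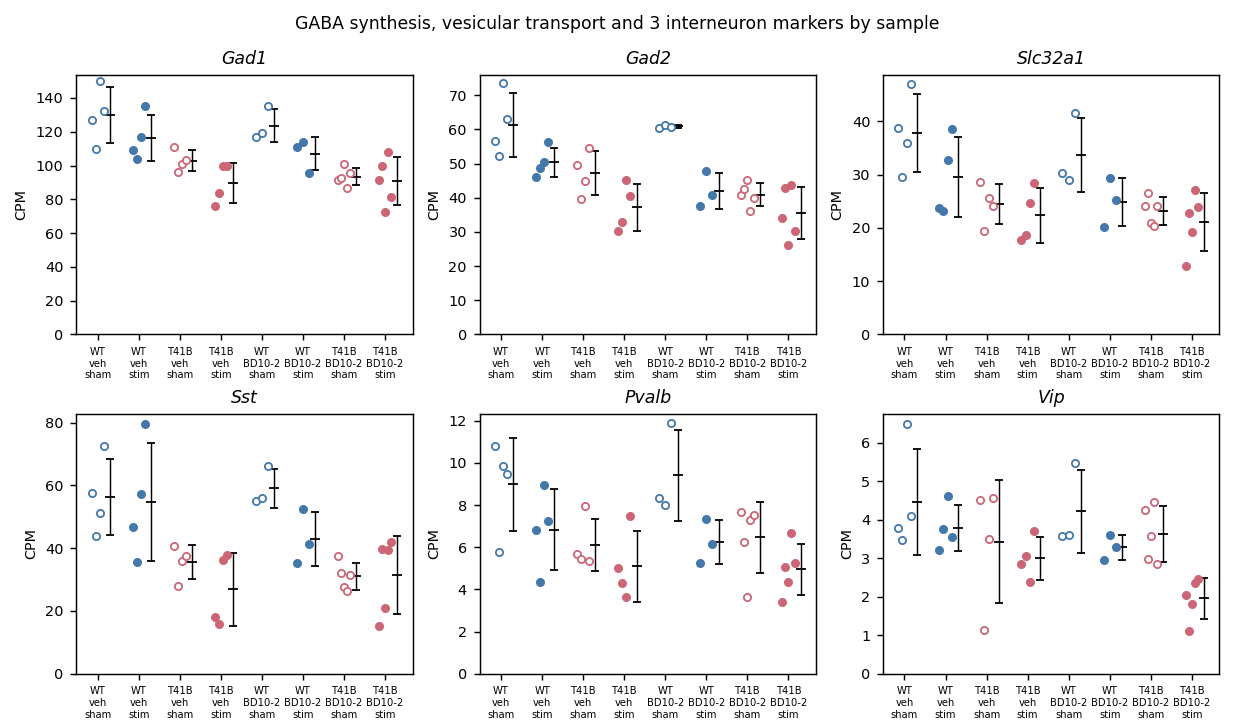
CPM of Gad1, Gad2, Slc32a1, Sst, Pvalb and Vip in each sample, by genotype (blue WT, red T41B), treatment and stimulation (open sham, filled stimulated). Points are mice and bars show the mean and SD of 3 to 5 mice; the sham values of Slc32a1 and of Sst in T41B mice all lie below those in WT mice.

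Among interneuron markers, 6 of 11 were lower in T41B sham slices, beside 7.12% of all genes lower and 10.8% higher. Somatostatin, made by dendrite-targeting interneurons, stood out. Sst was at 57.6, 44, 51.2 and 72.6 CPM in vehicle-treated WT mice and at 40.8, 28.1, 36 and 37.6 CPM in T41B mice. Under BD10-2 Sst was at 55, 56 and 66.3 CPM in WT and at 37.4, 32.2, 27.6, 26.5 and 31.5 CPM in T41B. No T41B sham value reached a WT value (log2 fold change -0.79, SE 0.20, edgeR adjusted p = 0.00504). Npy, a peptide of partly the same cells, showed the same separation in sham slices. Its level was 13.4, 11.2, 9.93 and 12 CPM (vehicle) and 12.3, 9.66 and 11.6 CPM (BD10-2) in WT. In T41B it was 8.31, 7.41, 8.45 and 8.98 CPM (vehicle) and 7.65, 6.76, 6.74, 5.89 and 6.51 CPM (BD10-2). The log2 fold change of Npy was -0.61, with an SE of 0.17 (edgeR adjusted p = 0.0121), and scaled to neuron markers it was -0.51 with an adjusted p of 0.0852. Slc32a1, Sst, Npy and Gabbr1 were the 4 members whose sham groups did not overlap across all mice. Over all genes this held for 0.827% with T41B lower.

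Pvalb, the calcium-binding protein of fast-spiking basket cells, was at 10.8, 5.76, 9.87 and 9.47 CPM in WT and at 5.69, 5.43, 7.97 and 5.35 CPM in T41B sham slices with vehicle. With BD10-2 Pvalb was at 8.34, 7.99 and 11.9 CPM in WT and at 7.68, 6.27, 3.63, 7.28 and 7.52 CPM in T41B. Only the treated groups were free of overlap (log2 fold change -0.54, SE 0.18, edgeR adjusted p = 0.0319). Of all genes, 7.18% were apart with T41B lower under BD10-2 and 3.33% with vehicle. The call was lost without any 1 of Mouse1509, Mouse1522, Mouse1551 and Mouse1590, and with batch as a term (-0.55, adjusted p = 0.0818).

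Calb2, calretinin, which marks a class of interneurons and also mossy cells of the mouse dentate gyrus and Cajal-Retzius cells, varied most. In WT sham slices Calb2 was at 8.18, 5.4, 4.02 and 11.5 CPM with vehicle and at 3.66, 1.88 and 10.2 CPM with BD10-2. In T41B sham slices it was at 7.63, 1.14, 3.67 and 3.04 CPM and at 3.45, 1.9, 2.18, 2.83 and 2.59 CPM. The groups overlapped, and the log2 difference of -0.96, SE 0.30 (edgeR adjusted p = 0.0282) ranged from -1.23 to -0.52 as each mouse was left out. It was no longer called without Mouse1509, Mouse1524, Mouse1551, Mouse1553, Mouse1579 or Mouse1590, nor with batch as a term (-0.86, adjusted p = 0.129), nor with only the compared groups fitted (-0.95, adjusted p = 0.0718). Reln (-0.37) and Erbb4 (-0.45), the secreted protein of neurogliaform and Cajal-Retzius cells and the neuregulin receptor of interneurons, were also lower, though Reln was not called without Mouse1590 (highest adjusted p 0.0625) or scaled to neuron markers (-0.25, adjusted p = 0.0569). Vip (-0.29, edgeR adjusted p = 0.318), Cck (-0.06), Lhx6 (-0.44, adjusted p = 0.0737), Adarb2 (-0.09) and Sncg (-0.10) were not called.

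Of the 9 GABA-A receptor subunits, 4 were lower in T41B sham slices, beside 7.12% of all genes lower and 10.8% higher. A log2 fold change below 0 was found in 8 of 9, beside a median of 0.00 over all genes. The gamma3 subunit gene Gabrg3 had the largest difference. It was at 32.8, 32.5, 31.9 and 31.4 CPM in WT and at 26.1, 14.6, 14.2 and 24.9 CPM in T41B mice with vehicle. Under BD10-2 Gabrg3 was at 25.9, 31.2 and 33.4 CPM in WT and at 20.5, 18.7, 26.5, 15.8 and 15.4 CPM in T41B. The vehicle groups did not overlap, and with BD10-2 the highest T41B mouse lay above the lowest WT mouse (log2 fold change -0.66, SE 0.12, edgeR adjusted p = 2.53e-04). Of all genes, 3.33% were apart in the vehicle groups with T41B lower. Gabra2 (-0.39, adjusted p = 0.0106), Gabra5 (-0.33, 0.0042) and Gabrb2 (-0.29, 0.021) were the other subunits called, and none of these 3 was called once libraries were scaled to neuron markers. Gabra2 and Gabrb2 were also not called with batch as a term, nor Gabra2 without Mouse1571 (adjusted p = 0.0599) and Gabrb2 without Mouse1553, Mouse1571 or Mouse1590 (up to 0.0574). Gabrd, the delta subunit of extrasynaptic receptors on dentate granule cells, had the only value above 0 among the 28 members (0.12, adjusted p = 0.384). Of 4 dentate granule cell markers, Dsp and Tdo2 were higher in T41B sham slices (0.66 and 0.79), and their part in the value of Gabrd was not tested. The sums of the 4 overlapped between genotypes. They were 171 to 321 CPM in WT and 221 to 442 CPM in T41B with vehicle, and 144 to 278 and 260 to 390 CPM with BD10-2.

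Both GABA-B receptor subunits were slightly lower in T41B sham slices. Gabbr1 stood at 559, 542, 559 and 586 CPM in WT and at 525, 539, 418 and 499 CPM in T41B mice with vehicle. With BD10-2 it was at 547, 552 and 547 CPM in WT and at 476, 533, 462, 448 and 503 CPM in T41B. All T41B values were below all WT values, at a small log2 difference of -0.18, SE 0.05 (edgeR adjusted p = 0.0152). Gabbr2 was at -0.21 (SE 0.07, adjusted p = 0.0261), and its call was lost without Mouse1524, Mouse1553, Mouse1565 or Mouse1590 (up to 0.0727). Neither was called with batch as a term (-0.15 for both) or scaled to neuron markers (-0.07 and -0.10). The postsynaptic genes were not called, with Gphn, the scaffold that anchors GABA-A receptors, at -0.05 (adjusted p = 0.388) and Nlgn2 at -0.18 (adjusted p = 0.0828).

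Erbb4, Gabrg3, Gad1, Gad2, Slc32a1 and Sst were called lower in T41B sham slices under every one of the 26 settings run, each mouse left out in turn included. Within each of the 4 batches that held sham slices of both genotypes, 24 or 25 of 28 members were lower in T41B, with batch medians of -0.18, -0.33, -0.46 and -0.32 on the log2(CPM + 1) scale. These batches hold 1 T41B mouse each against 1 or 2 WT mice, so no batch gives a test of its own. The fit with batch as a term called 11 members lower, 9 of the 15 and also Gabrg1 and Lhx6. Taken singly, the vehicle contrast called 2 members, Erbb4 and Gabrg3, both lower. The background was 6.24% of genes, 1.24% lower and 5% higher, and DESeq2 called 5 members. The BD10-2 contrast called 7, all lower, namely Erbb4, Gabra2, Gabra5, Gabrg3, Gad1, Gad2 and Sst (background 5.45%, of which 1.14% lower and 4.31% higher). The vehicle count ranged from 0 to 6 and the BD10-2 count from 0 to 7 as single mice were left out, and no BD10-2 call was left without WT Mouse1590. In the vehicle contrast 0 were called without Mouse1551 or Mouse1553, 1 without Mouse1522, 4 without Mouse1590, 5 without Mouse1510 and 6 without Mouse1513.

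In stimulated slices, 8 of 28 genes were lower in T41B than in WT mice and 0 were higher, but with libraries scaled to neuron markers 1 was lower and 2 were higher. The background was 16.4% of genes called, 5.82% lower and 10.6% higher. An unadjusted p under 0.05 was reached by 17 members and by 5660 of the 19478 genes, and DESeq2 called 8 lower and 0 higher. The members' median log2 fold change was -0.26, beside -0.03 over all genes. Sst was at 46.9, 35.5, 57.4 and 79.6 CPM in stimulated WT slices and at 18.1, 15.8, 36.3 and 37.7 CPM in T41B slices with vehicle. Under BD10-2 it was at 35.2, 52.4 and 41.3 CPM in WT and at 15.2, 39.6, 20.8, 39.5 and 42.1 CPM in T41B. The groups overlapped in both treatments, and in each T41B group 2 mice lay far below the others (log2 fold change -0.74, SE 0.20, edgeR adjusted p = 0.00859). With BD10-2 these 2 were Mouse1563 and Mouse1564, both of batch H, which held no WT mouse. Sst was the 1 gene called both here and after scaling to neuron markers. It was not called when only the compared groups were fitted (-0.73, adjusted p = 0.0534).

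Gabra3, the alpha3 subunit, was called in stimulated slices. Vehicle-treated WT mice held 31, 30, 32.7 and 38 CPM and T41B mice 19.8, 20.9, 24.8 and 26.6 CPM, without overlap. Of all genes, 4.31% were apart in these groups with T41B lower. With BD10-2 Gabra3 was at 19.4, 30.9 and 23.4 CPM in WT and at 17.2, 19.8, 15.3, 19.7 and 19.3 CPM in T41B, where the lowest WT mouse fell among the T41B values. The log2 fold change was -0.47, with an SE of 0.15 (edgeR adjusted p = 0.0259), and the call was lost without Mouse1510, Mouse1524, Mouse1564 or Mouse1586 and with batch as a term. Gad2 (-0.34, adjusted p = 0.0176), Gad1 (-0.31, 0.00648), Gabrb2 (-0.31, 0.0118) and Erbb4 (-0.29, 0.00973) were also lower. Gabra2 (-0.32, 0.0386) and Gabbr2 (-0.20, 0.0352) were the least stable, Gabra2 losing the call without any 1 of 11 mice (adjusted p up to 0.14) and Gabbr2 without any 1 of 9 (up to 0.138). Gad2 lost it without Mouse1510 or Mouse1586 (up to 0.0658), with batch as a term (0.055) and with only the compared groups fitted (0.0565), Gabrb2 without Mouse1565 (0.0653) and Erbb4 without Mouse1571 (0.0562). Slc32a1 (-0.32, adjusted p = 0.128) and Npy (-0.02, adjusted p = 0.967) were not called.

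With batch as a term 4 members were called in stimulated slices, 2 of them shared (Gad1 and Sst) and 2 added (Gabrg1 and Reln), and no member was called in all 26 settings. Of the 3 batches with stimulated slices of both genotypes, 26, 20 and 21 of 28 members were lower in T41B. In batch I, with 2 mice a genotype, Sst was 0.10 higher and Slc32a1 0.05 higher in T41B on the log2(CPM + 1) scale. Singly, the vehicle contrast called 3, all lower (Sst, Gad1 and Erbb4). The background there was 5.79%, 1.05% lower and 4.74% higher. The BD10-2 contrast called 1, lower (Gabbr2), on a background of 10.6%, 2.36% lower and 8.19% higher.

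**Figure D3:**
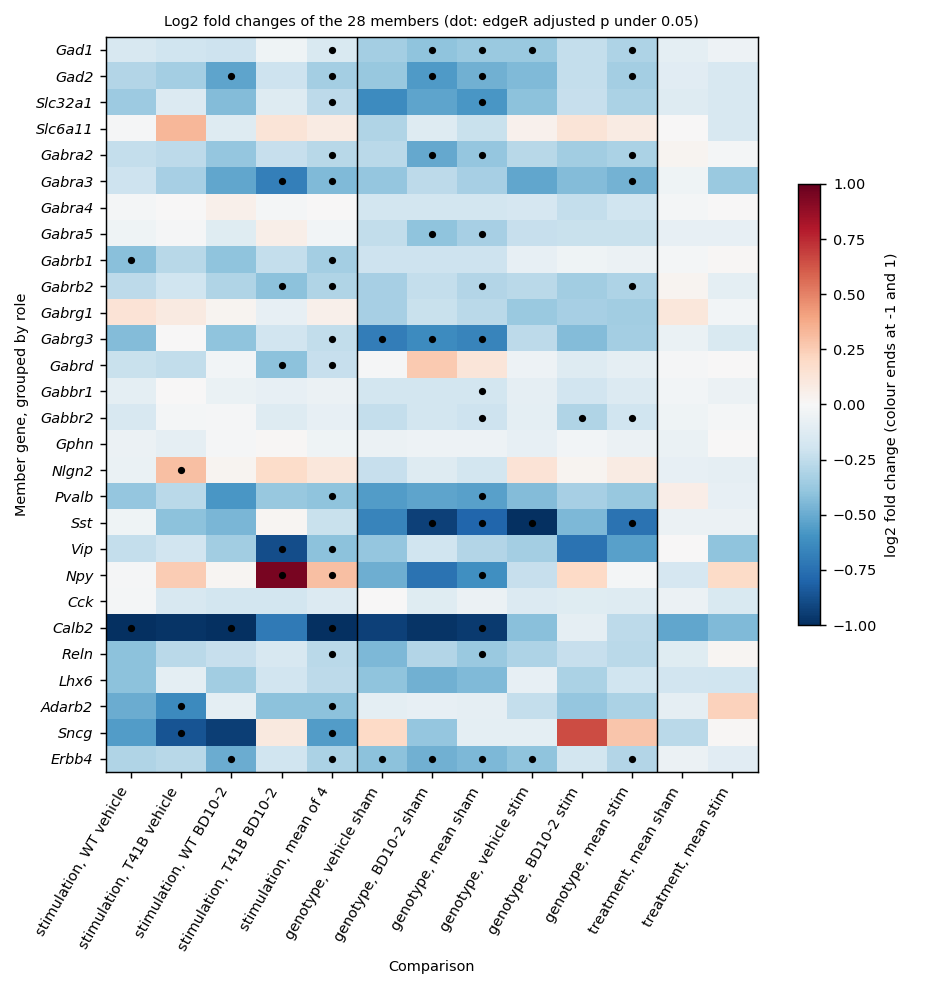
Log2 fold change of the 28 members (rows, grouped by role) in 13 comparisons (columns), on a colour scale that ends at -1 and 1; dots mark an edgeR adjusted p under 0.05. The genotype columns are nearly all blue (T41B lower) and the treatment columns hold no dot; scaled to neuron markers, the mean stimulation column would hold 1 call lower and 7 higher.

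After theta-burst stimulation 7 of 11 interneuron markers and 6 of 9 GABA-A subunits were lower relative to the library as a whole, and 1 interneuron marker was higher. On the mean of the 4 combinations of genotype and treatment, 16 of 28 members were lower in stimulated than in sham slices and 1, Npy, was higher (DESeq2 also called Nlgn2 higher, at 0.12), whereas scaled to neuron markers 1 was lower (Calb2) and 7 were higher. The background was high, 46.8% of all genes called, 24.6% lower and 22.2% higher, against 60.7% of members called. Over all genes 4323 were called higher and 4795 lower, and scaled to neuron markers 9047 higher and 988 lower. The median log2 fold change was -0.26 over the members and -0.03 over all genes. Under the neuron scaling both medians moved up, to -0.02 and 0.21, and 23 of 28 members still lay below the median gene, against 22 before.

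Calb2 showed the largest change and was the 1 member called under all 27 settings run. Stimulated slices held 2.55, 1.82, 2.42 and 3.69 CPM in vehicle-treated WT mice and 1.82, 1.19, 2.31 and 2.47 CPM in T41B mice. With BD10-2 Calb2 was at 1.34, 2.42 and 1.24 CPM in stimulated WT slices and at 1.2, 1.24, 1.38, 1.92 and 2.26 CPM in T41B slices. Set against the sham values above, it was lower in 13 of 14 mice with both slices, and the exception, T41B Mouse1551, was low in both (1.14 and 1.19 CPM). The log2 fold change was -1.19, with an SE of 0.23 (edgeR adjusted p = 8.26e-05), and -0.96 scaled to neuron markers. Single markers of neighbouring regions also differed after stimulation. Slc17a6, a glutamate transporter of subcortical neurons, was at -0.88 and the thalamic gene Lef1 at -0.79, while Prkcd, also on the thalamic list, was at 0.30. The sum of the 4 thalamic markers overlapped between sham and stimulated slices in every group. In vehicle-treated WT mice it was 34.6 to 42.2 CPM in sham and 32.8 to 38.2 CPM in stimulated slices. With BD10-2 it was 43 to 47.6 and 44.7 to 55 CPM in T41B mice. The part of these markers in the Calb2 value was not tested.

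**Figure D4:**
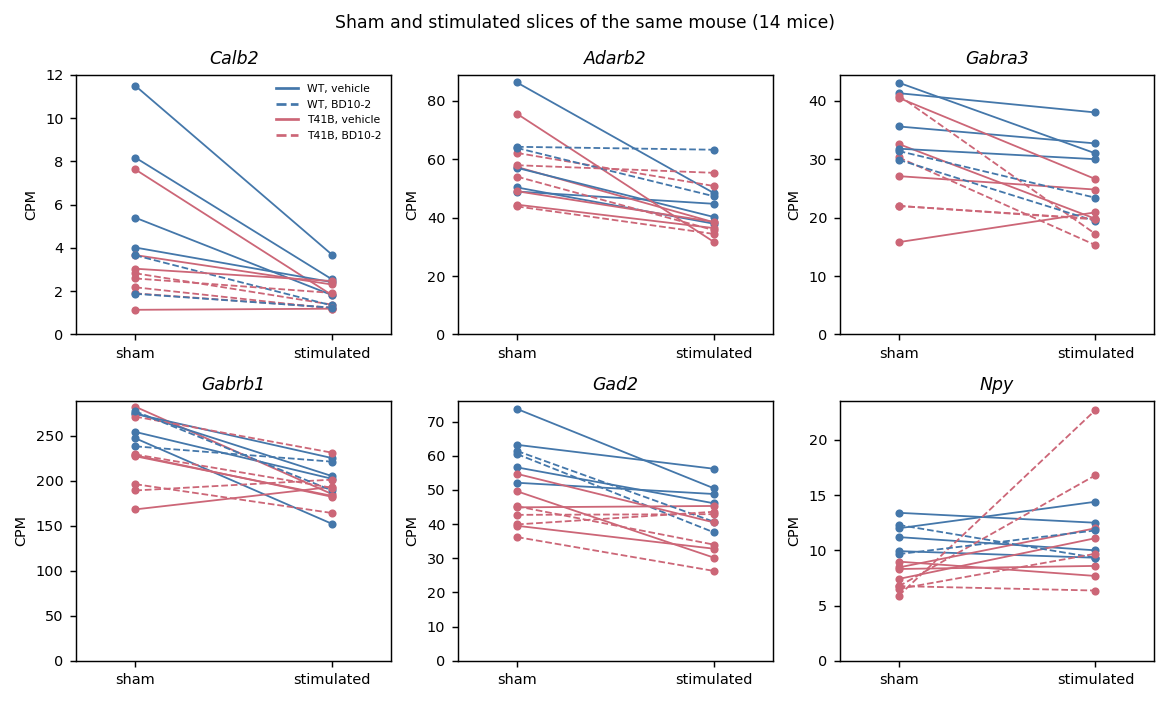
CPM of 6 members in sham and stimulated slices of the same mouse, 1 line per mouse for 14 mice, coloured by genotype and dashed for BD10-2. Adarb2 was lower after stimulation in 14 of 14 mice and Calb2 in 13, while Npy was higher in 8 and lower in 6.

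Adarb2, an RNA-editing family gene that marks interneurons of the caudal ganglionic eminence, was lower in all 14 paired mice. Sham slices held 48.9, 86.2, 57 and 50.3 CPM (WT) and 57.3, 75.5, 44.4 and 49 CPM (T41B) with vehicle. Stimulated slices held 44.7, 48.4, 40.2 and 37.9 CPM (WT) and 38.4, 31.7, 36.4 and 38.5 CPM (T41B), so that neither vehicle pair of groups overlapped. Over all genes, 6.72% (WT) and 8.72% (T41B) were apart with stimulated slices lower. Sham and stimulated slices with BD10-2 came in part from different mice, so the lists of values for them do not pair in order. In the 2 paired WT mice on BD10-2 Adarb2 went from 64.2 to 63.2 and from 63.8 to 47.3 CPM, with 41.2 CPM in the mouse with a sham slice alone and 48.1 CPM in that with a stimulated slice alone. The 4 paired T41B mice went from 54 to 35.7, from 62.1 to 50.8, from 43.8 to 34.4 and from 57.9 to 55.3 CPM, with 49.4 CPM in the unpaired sham slice and 24.6 CPM in the unpaired stimulated slice. Its log2 fold change was -0.41, with an SE of 0.10 (edgeR adjusted p = 0.00169). In all, 7 members were lower in at least 13 of the 14 mice (Adarb2, Calb2, Erbb4, Gabra2, Gabra3, Gabrb2 and Pvalb), as were 12.5% of all genes. No member was higher in 12 or more mice, while 19.2% of all genes were.

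The other interneuron markers differed in direction. Vip, of interneurons that contact other interneurons, was at -0.41 (SE 0.14, edgeR adjusted p = 0.0187). With vehicle its sham level was 3.79, 3.46, 6.48 and 4.1 CPM in WT and 4.5, 1.14, 3.51 and 4.57 CPM in T41B. After stimulation it was 3.2, 3.75, 4.62 and 3.56 CPM in WT and 2.86, 3.07, 2.37 and 3.71 CPM in T41B, and both pairs of groups overlapped. With BD10-2 Vip overlapped in WT (3.58, 3.6 and 5.47 against 2.96, 3.6 and 3.29 CPM after stimulation) and did not in T41B (4.25, 2.97, 3.58, 4.45 and 2.86 against 2.04, 1.12, 1.8, 2.36 and 2.45 CPM). Of all genes, 5.93% were apart with stimulated slices lower in T41B mice given BD10-2. The call was lost without Mouse1590 and with a replicate block by mouse (-0.36, adjusted p = 0.0527).

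Pvalb was lower after stimulation in 13 of 14 mice (-0.40, SE 0.13, edgeR adjusted p = 0.00974). Stimulated slices held 6.81, 4.35, 8.95 and 7.25 CPM of Pvalb in WT and 5.0, 4.31, 3.63 and 7.48 CPM in T41B mice with vehicle. With BD10-2 they held 5.27, 7.36 and 6.14 CPM and 3.39, 5.07, 4.37, 6.68 and 5.27 CPM. Sham and stimulated values overlapped in all groups but WT with BD10-2. In that group of 3 mice a state, 15.2% of all genes were apart with stimulated slices lower.

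Sncg, synuclein gamma, a marker of some Cck-positive basket cells, was the least abundant member, at or under 1.59 CPM in every sample. With vehicle its sham values were 0.889, 1.01, 1.01 and 1.21 CPM in WT and 0.875, 0.79, 1.59 and 1.47 CPM in T41B, and its stimulated values 1.02, 0.441, 0.691 and 0.615 CPM and 0.636, 0.738, 0.88 and 0.325 CPM. With BD10-2 the WT values were 1.1, 0.992 and 1.03 CPM in sham and 0.487, 0.62 and 0.496 CPM in stimulated slices, whereas the T41B values were 0.85, 0.66, 0.726, 0.751 and 0.953 CPM in sham and 1.15, 1.0, 0.899, 0.68 and 0.565 CPM in stimulated slices. Its mean log2 fold change was -0.56, with an SE of 0.14 (edgeR adjusted p = 0.00188), and it was lower in 10 of 14 paired mice.

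Npy was the member called higher, at 0.30 (SE 0.12, edgeR adjusted p = 0.0399). After stimulation it was at 12.5, 10, 9.33 and 14.4 CPM in WT and 8.59, 11.1, 12 and 7.68 CPM in T41B mice with vehicle, and at 9.33, 12.9 and 11.8 CPM in WT with BD10-2. The T41B mice given BD10-2 had 16.8, 6.36, 22.7, 9.69 and 9.73 CPM, and 2 of these 5 mice stood above every other sample. These 2, Mouse1563 and Mouse1564, were the only mice of batch H, which held no WT mouse. They also held the lowest stimulated Sst values of their group. In T41B mice given BD10-2 the contrast alone gave 0.95 (SE 0.21, edgeR adjusted p = 0.00141). The mean call was lost without any 1 of 8 mice (Mouse1509, Mouse1524, Mouse1551, Mouse1553, Mouse1563, Mouse1564, Mouse1571 or Mouse1586) and with a replicate block by mouse (0.28, adjusted p = 0.0757), and it was 0.56 scaled to neuron markers. Sst (-0.22, adjusted p = 0.198), Cck (-0.14, 0.173) and Lhx6 (-0.26, 0.0787) were not called, but with the replicate block all 3 were (-0.31, -0.17 and -0.22), and with batch as a term Lhx6 was (-0.24). Reln (-0.27) and Erbb4 (-0.32) were lower.

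Of the GABA-A subunits, 6 of 9 were lower after stimulation and 0 higher, beside 24.6% of all genes lower and 22.2% higher. Scaled to neuron markers 0 were lower and 1, Gabra5, was higher (0.21), beside 988 genes lower and 9047 higher of 19478. Gabra3 was at 43.1, 31.8, 35.6 and 41.3 CPM in WT and 32.6, 15.8, 27.1 and 40.5 CPM in T41B sham slices with vehicle. With BD10-2 its sham values were 29.9, 31.4 and 44.9 CPM in WT and 31.4, 22, 40.9, 30.3 and 22 CPM in T41B. Beside the stimulated values above, Gabra3 was lower in 13 of 14 mice, and the T41B groups given BD10-2 did not overlap (log2 fold change -0.44, SE 0.10, edgeR adjusted p = 0.00112). Of all genes, 5.93% were apart in these groups with stimulated slices lower. Gabrb1, the beta1 subunit, fell from 262 ± 14.2 to 196 ± 30.9 CPM (SD, n = 4) in WT mice with vehicle (mean over the 4 combinations -0.34, adjusted p = 1.56e-04). Gabrb2 (-0.30), Gabra2 (-0.28), Gabrg3 (-0.25) and Gabrd (-0.23) were the others called, Gabrg3 not without Mouse1590 (adjusted p = 0.0527).

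Gabrb2 was at 138, 148, 143 and 118 CPM in WT and 123, 122, 80.7 and 109 CPM in T41B sham slices with vehicle, and at 123, 117, 122 and 92.9 CPM and 95.5, 89.9, 104 and 88.7 CPM after stimulation. With BD10-2 Gabrb2 was at 127, 140 and 138 CPM in sham and 120, 114 and 94.1 CPM in stimulated WT slices. In T41B it was at 121, 106, 128, 112 and 103 CPM in sham and 103, 88.6, 70.3, 89.5 and 75.8 CPM in stimulated slices. Stimulated and sham values were apart in WT mice given BD10-2 and overlapped elsewhere. With 3 mice a state, 15.2% of all genes were apart there with stimulated slices lower. In the other groups 6.72% (WT, vehicle), 8.72% (T41B, vehicle) and 5.93% (T41B, BD10-2) were. Gabra2, the alpha2 subunit of axon initial segment synapses, was at 58, 65, 62.1 and 56.4 CPM in WT and 60.9, 53.8, 36.9 and 48.9 CPM in T41B sham slices with vehicle, and at 52, 59.6, 51.4 and 40.8 CPM and 43.5, 36.2, 44.5 and 43.2 CPM after stimulation. With BD10-2 it was at 63.8, 79.6 and 58.3 CPM in sham and 55.9, 42.8 and 55.4 CPM in stimulated WT slices. In T41B it was at 48.2, 42.5, 57.1, 40.2 and 47.9 CPM in sham and 50.5, 40, 31.3, 45.4 and 33.8 CPM in stimulated slices. It too was apart in the treated WT mice and overlapped in the others. Gabrg3 held 25.9, 25.6, 27.7 and 16.1 CPM in stimulated WT and 22.1, 18.7, 18.3 and 20.6 CPM in stimulated T41B slices with vehicle, and 22.6, 23 and 22.9 CPM and 17.7, 17.3, 16.2, 16.2 and 17.6 CPM with BD10-2. In WT mice these values lay below the sham values given above under both treatments, and in T41B mice they fell within the sham range.

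Gad2 fell after stimulation (log2 fold change -0.34, SE 0.07, edgeR adjusted p = 2.43e-04) and Gad1 by less (-0.15, SE 0.06, adjusted p = 0.0278). Stimulated slices held 46.1, 48.8, 50.5 and 56.2 CPM of Gad2 in WT and 30.2, 32.8, 45.3 and 40.5 CPM in T41B mice with vehicle. With BD10-2 Gad2 was at 37.6, 47.9 and 40.7 CPM in WT, all below the sham values of 60.5 to 61.4 CPM, and at 34, 42.9, 26.3, 43.6 and 30.4 CPM in T41B, which overlapped sham. Of all genes, 15.2% were apart with stimulated slices lower in WT mice given BD10-2. Gad1 was at 109, 104, 117 and 135 CPM in WT and 76.2, 83.7, 99.5 and 99.5 CPM in T41B with vehicle. With BD10-2 it was at 111, 114 and 95.8 CPM and at 91.7, 100, 72.3, 108 and 81.2 CPM. The Gad1 call was lost without Mouse1510, Mouse1522, Mouse1571 or Mouse1590 and without the low-count filter (adjusted p = 0.0735), and scaled to neuron markers its value was 0.08.

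Slc32a1 was at 23.8, 23.1, 32.7 and 38.6 CPM in WT and 17.7, 18.6, 24.7 and 28.4 CPM in T41B stimulated slices with vehicle, and at 20.2, 29.3 and 25.2 CPM and 12.8, 22.8, 19.2, 27.1 and 24 CPM with BD10-2. It was lower than sham in 12 of 14 mice, with overlap in every group (-0.26, SE 0.10, edgeR adjusted p = 0.032). That call was lost without Mouse1509, Mouse1510, Mouse1565 or Mouse1590 and with only the first library of each pair (adjusted p = 0.0563). Besides Sst, Cck and Lhx6, the genes with no call on the mean were Slc6a11 (0.08), Gabra4 (0.00), Gabra5 (-0.03), Gabrg1 (0.05), Gabbr1 (-0.06), Gabbr2 (-0.08), Gphn (-0.04) and Nlgn2 (0.11). The GABA-B subunits and the postsynaptic genes are expressed widely in the receiving cells.

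Taken by group of mice, stimulation called 2 members in vehicle-treated WT mice, Calb2 and Gabrb1, both lower. The background was 12.3% of genes, 4.1% lower and 8.21% higher. In vehicle-treated T41B mice it called 3, Adarb2 and Sncg lower and Nlgn2 higher by 0.30, on a background of 21.5%, 9.83% lower and 11.7% higher. In WT mice given BD10-2 it called 3 lower, Calb2, Erbb4 and Gad2, against 8.87% of genes, 2.58% lower and 6.29% higher. T41B mice given BD10-2 had 5 calls, Gabra3, Gabrb2, Gabrd and Vip lower and Npy higher, against 22.9%, 9.52% lower and 13.3% higher. Counted in both directions, the members' share was below the background in all groups but WT mice given BD10-2. Counted for lower calls alone, it was 7.14%, 7.14%, 10.7% and 14.3% in this order, above the background in all groups but vehicle-treated T41B mice. With a replicate block by mouse the counts in the same order were 6, 7, 1 and 5. The share over all genes in that fit is not given here, and the backgrounds above do not apply to it. Calls with few members rested on single mice. Without Mouse1509, Mouse1513 or Mouse1524 no member was called in vehicle-treated WT, and without Mouse1522 or Mouse1586 there was 1. In vehicle-treated T41B mice 1 was called without Mouse1551 or Mouse1579. In WT mice given BD10-2 none was called without Mouse1565 or Mouse1590 and 1 without Mouse1571, and T41B mice given BD10-2 had 3 without Mouse1564.

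**Figure D5:**
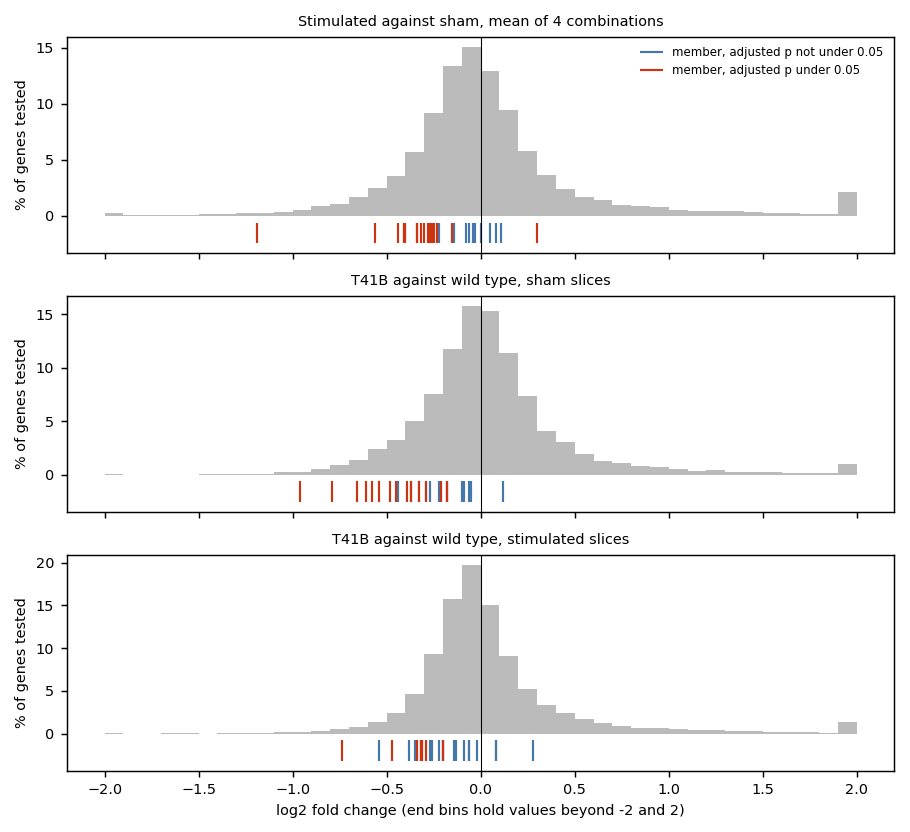
Share of the 19478 tested genes by log2 fold change (grey histogram) with the 28 members as ticks under it, red where the edgeR adjusted p was under 0.05, for stimulation, genotype in sham slices and genotype in stimulated slices. The members' medians are -0.26, -0.31 and -0.26, and those of all genes -0.03, 0.00 and -0.03; scaled to neuron markers, the first pair becomes -0.02 and 0.21.

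BD10-2 against vehicle called 0 of 28 members and 0 of 19478 genes (0% called) in each of the 4 single contrasts and in the means of sham and of stimulated slices, by edgeR. DESeq2 called 0 members as well. At an unadjusted p under 0.05 the mean contrasts held 0 members and 422 genes in sham slices and 1 member and 954 genes in stimulated slices. That member was Gabra3 (-0.37, 95% interval -0.68 to -0.07). Of the single contrasts, T41B sham held 1 member, Sncg (-0.57), beside 431 genes, T41B stimulated held 1, Vip (-0.60), beside 759 genes, and both WT contrasts held 0, beside 374 and 1093 genes. The intervals still allowed sizeable differences for the rarer genes. In sham slices the interval was -0.31 to 0.10 for Gad2, -0.47 to 0.34 for Sst and -1.14 to 0.11 for Calb2. Each batch held 1 treatment, so treatment and batch cannot be told apart.

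No difference was called between the genotype contrasts of sham and stimulated slices, or between the stimulation contrasts of T41B mice on BD10-2 and on vehicle. The 3 interaction tests called 0 members and 0 genes (0%) by edgeR, and DESeq2 called 0 members. With an unadjusted p under 0.05 there were 1, 2 and 2 of 28 members beside 1683, 846 and 526 of 19478 genes. Nothing is read from these members, which are named to account for the count. These were Nlgn2 in the genotype by stimulation test with vehicle (0.36, 95% interval 0.07 to 0.65), and Npy (0.94, 0.23 to 1.64) and Sncg (1.04, 0.21 to 1.88) in that with BD10-2. Npy (0.70, 0.05 to 1.36) and Sncg (0.96, 0.18 to 1.74) also appeared in the treatment by stimulation test of T41B mice. The stimulation response of Sst differed by -0.36 between genotypes with vehicle (95% interval -1.16 to 0.44), which leaves room for a difference of either sign.

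Other interneuron genes formed a list of 24 with 23 tested. In T41B sham slices 10 were lower and 1 higher, with a list median of -0.40 beside 0.00 over all genes, of which 7.12% were lower and 10.8% higher. With batch as a term 5 were lower. Crhbp (-1.02), a binding protein of corticotropin-releasing hormone, and the peptide genes Cort (-0.97) and Tac1 (-0.94) had the largest values, followed by the synaptotagmin Syt2 (-0.87). In stimulated slices 7 were lower and 2 higher in T41B, with Crhbp at -1.10, Syt2 at -1.02, Cort at -0.94 and Dlx6, a transcription factor of interneurons, at -0.64. The counts were 2 lower and 1 higher with batch as a term, and 4 lower and 3 higher scaled to neuron markers, while 5.82% of all genes were lower and 10.6% higher. After stimulation 13 were lower and 0 higher (list median -0.28), but scaled to neuron markers 2 were lower and 1 higher (median -0.04). Over all genes 24.6% were lower and 22.2% higher. The largest values were those of Syt2 (-0.68), Cort (-0.47), Lamp5 (-0.47), a marker of neurogliaform cells, and Satb1 (-0.42). Of the remaining 10 tested genes of the list, 1 reached an unadjusted p under 0.05 for stimulation.

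Other genes of GABA receptors, transport and breakdown, a list of 15 with 11 tested, did not move one way. After stimulation 2 were lower and 2 higher, beside 24.6% of all genes lower and 22.2% higher. Scaled to neuron markers 1 was lower and 8 were higher, beside 988 genes lower and 9047 higher of 19478. Without that scaling the lower ones were Slc6a13 (-1.80), the transporter GAT2, which is found mainly in the meninges, and Aldh5a1 (-0.19), which breaks down GABA. The higher ones were Gabre (1.07), the epsilon subunit, and the chloride transporter Slc12a2 (0.18). In T41B sham slices 3 were lower and 1 higher (1 lower and 2 higher scaled to neuron markers, and 1 lower and 0 higher with batch as a term). Over all genes 7.12% were lower and 10.8% higher, and scaled to neuron markers 198 genes were lower and 2895 higher. Gabarap, which acts in autophagy and receptor trafficking, was at 0.41, Iqsec3, a gephyrin partner, at -0.39, Lhfpl4 at -0.16 and Aldh5a1 at -0.14. In T41B stimulated slices Aldh5a1 (-0.24) was the 1 gene called, and scaled to neuron markers 0 were lower and 1 was higher. Over all genes 5.82% were lower and 10.6% higher there, and scaled to neuron markers 63 genes were lower and 4212 higher. The list medians were -0.02, -0.07 and -0.09.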

How the data were processed

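The authors deposited expected counts per gene from RSEM, estimated and not scaled between libraries. Per the submitters' processing notes, cutadapt 1.8.1, STAR 2.7.6a, RSEM 1.3.1, featureCounts 1.6 and SAMtools 1.11 were used with GRCm38.p6 and mm10; per the labels' protocols, 200 ng of total RNA entered a stranded kit with ribosomal RNA removal. Counts were rounded. In 4 cases 2 libraries shared mouse and slice labels; they were summed on the labels alone, giving 32 samples from 36 libraries. Their chi-square over degrees of freedom, 8.1 to 31.6, exceeded sampling noise and lay within the range between different mice, 6.9 to 77.0, so the counts do not show that they are 1 sample.

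One edgeR 4.0.16 quasi-likelihood fit (R 4.3.3) covered all 8 groups, with TMM scaling, filterByExpr at a minimum count of 10 and Benjamini-Hochberg adjustment over all genes tested; "called" means an adjusted p under 0.05. CPM use TMM-scaled totals, and means over contrasts weight each equally. The script was tested on simulated data. Alternatives were DESeq2 1.42.0, RLE scaling, no filter, only the groups compared, the first of each library pair, each mouse left out, batch as a term (not for treatment), a block by mouse (stimulation and interactions) and, chosen after seeing the data, scaling to neuron markers.

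The labels' mouse numbers pair slices of the same animal, whose deviations from group means correlated at 0.29 on average over 14 pairs (0.05 to 0.55). Members and lists were chosen with earlier results of these data known. Per-sample values are given for the 6 members of largest called change in each mean stimulation or genotype contrast and for Gad1, Gad2, Slc32a1, Pvalb, Sst and Vip; other lists name up to 4 called genes, and some genes of these lists are not reported here. Per-sample values of Gabbr1 and group means of Gabrb1 were added after they were seen. Coordinates and exon lengths are from GENCODE M21.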

Additional observations from a re-analysis of the deposited data

Results flagged for a closer look

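Among 168 combinations of a member and a group of 4 or 5 mice, 4 (2.38%) held a mouse whose gap to its nearest neighbour was large for the group's range; chance gives about 1 in 20. Gabra2 in stimulated slices of vehicle-treated T41B mice was at 36.2 CPM in Mouse1551, against 43.2 to 44.5 CPM in the other mice. Gabra5 in the same group was at 120 CPM in Mouse1553, against 92.3 to 96.4 CPM. In sham slices of vehicle-treated T41B mice, Pvalb was at 7.97 CPM in Mouse1553, against 5.35 to 5.69 CPM. Cck in sham slices of T41B mice given BD10-2 was at 86 CPM in Mouse1563, against 113 to 122 CPM. Without Mouse1553 Pvalb kept its genotype call in sham slices.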

How the results depend on the processing

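Scaled to neuron markers, the counts of members called were 1 for stimulation in vehicle-treated WT, 0 in WT given BD10-2 and 8 on the mean, and for genotype 1 (vehicle sham), 2 (BD10-2 sham), 8 (mean sham), 0 (BD10-2 stimulated) and 3 (mean stimulated). The mean stimulation values of 6 members called with either scaling changed sign there: Gad1 0.08, Gabra5 0.21, Gabrd 0.00, Gabbr1 0.17, Gabbr2 0.16 and Gphn 0.21. Cck, called with neither, also did, from -0.14 to 0.10. For genotype, Adarb2, Cck and Gphn in sham slices and Cck, Gabbr1, Gabrb1, Gabrd, Gphn and Npy in stimulated slices changed sign, with no call under either scaling. This follows from the construction, since the scaling raised the median gene from -0.03 to 0.21. It raised it from 0.00 to 0.11 for genotype in sham slices, with 2895 genes higher and 198 lower in place of 2104 and 1386, and from -0.03 to 0.17 in stimulated slices, with 4212 and 63 in place of 2061 and 1134. With the replicate block by mouse, stimulation called 6 members in vehicle-treated WT, 7 in vehicle-treated T41B, 1 in WT given BD10-2 and 18 on the mean; beyond those named in the report it changed no call on the mean. With batch as a term, stimulation called 5 members in each vehicle group, and genotype 4 (BD10-2 sham), 0 (BD10-2 stimulated) and 4 (mean stimulated). Without the low-count filter stimulation in vehicle-treated WT called 1 member, fitting only the compared groups left 1 in vehicle-treated T41B, and DESeq2 called 5 for genotype in vehicle sham. The single genotype call with BD10-2 in stimulated slices was 0 with RLE scaling, with no filter and with the first library only. The cause of these shifts was not tested, apart from the scaling. Shares over all genes with the block by mouse or with batch as a term are not given here, so those counts have no background.

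Leaving out single mice, stimulation counts ranged from 0 to 3 (WT vehicle), 1 to 4 (T41B vehicle), 0 to 3 (WT BD10-2), 3 to 5 (T41B BD10-2) and 14 to 17 (mean). Genotype counts ranged from 0 to 6 (vehicle sham), 0 to 4 (vehicle stimulated), 0 to 7 (BD10-2 sham), 0 to 2 (BD10-2 stimulated), 10 to 18 (mean sham) and 5 to 10 (mean stimulated). In vehicle stimulated slices 0 were called without Mouse1522, Mouse1524 or Mouse1551 and 1 without Mouse1509 or Mouse1510. With BD10-2 in stimulated slices 0 were called without Mouse1509, Mouse1510, Mouse1564, Mouse1565, Mouse1586 or Mouse1590 and 2 without Mouse1551 or Mouse1553. The mean of stimulated slices had 5 without Mouse1564, Mouse1565 or Mouse1586. With BD10-2 in sham slices 0 were called without Mouse1590, 1 without Mouse1571, 2 without Mouse1565, 3 without Mouse1564 or Mouse1570 and 4 without Mouse1592. For genotype in stimulated slices, the mice whose absence ended the call were Mouse1509, Mouse1513, Mouse1522, Mouse1551, Mouse1564, Mouse1565, Mouse1570, Mouse1571, Mouse1572, Mouse1579 and Mouse1590 for Gabra2, and Mouse1509, Mouse1510, Mouse1522, Mouse1551, Mouse1563, Mouse1564, Mouse1565, Mouse1586 and Mouse1590 for Gabbr2. Treatment and interaction counts stayed at 0 in every setting run. With 3 to 5 mice a group, members of low count such as Sncg and Vip are the least precise.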
